A study of Homo sapiens with 6 samples.

Results

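The baseline state of the uveal melanoma line Mel 290 was compared with that of the lines 92.1 and Mel 270, each grown without T cells. The comparison used 3 of the study's 6 arrays, chosen by their label as controls with no co-cultured cells: 1 array of Mel 290 and 1 each of 92.1 and Mel 270. The other 3 arrays held the same lines grown with activated T cells, and served here only to see whether a difference was also present there. All 3 are established human lines of choroidal melanoma. No genotype or treatment separates them in the labels beyond the line itself, and no line had a repeat culture, so every value below is that of 1 array. Per the labels' protocols, 100000 cells of Mel 290 or Mel 270 and 80000 cells of 92.1 were plated, and culture in serum-free X-VIVO 15 medium lasted 64 h. Mel 290 was confluent when that medium was added and the other lines were not yet. All lines then went on to confluence, per the same protocols. Growth state, including the time spent confluent, and line therefore cannot be told apart in these arrays. The array of Mel 290 stands for 1 line and not for a class of tumours.

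Melanomas of the uvea grow from eye melanocytes, which descend from the neural crest. In melanocytes the transcription factors MITF, SOX10 and PAX3 maintain the genes for melanin synthesis and for the melanosome, the organelle in which the pigment is made and stored. Most uveal melanomas carry an activating mutation in GNAQ or GNA11, the alpha subunits of a G protein that signals through phospholipase C, protein kinase C and RASGRP3 to MAP kinase and, by another branch, to the coactivator YAP. Both 92.1 and Mel 270 are known as GNAQ-mutant lines, while Mel 290 is known to lack these mutations. Arrays of RNA levels do not read the mutations. Melanoma cells that lose the melanocyte program are often described as mesenchymal, with high AXL, EGFR and matrix genes.

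The value table held 33297 probe sets with log2 values from 1.50 to 13.9, and the medians of the arrays lay between 6.63 and 6.69. A gene was tested if the mean of its probe set over the 3 arrays grown alone reached 5.78, the 25th percentile of the annotated probe sets, which left 13809 genes. Levels below 5.78 are called low in what follows. Across all probe sets the arrays of 92.1 and Mel 270 correlated at r = 0.966, and that of Mel 290 correlated at 0.938 with 92.1 and 0.932 with Mel 270. The probe sets are not independent replicates, so these are descriptions.

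Mel 290 stood further from both other lines than they stood from each other. A gene was called when Mel 290 lay at least 2-fold (1 on the log2 scale) above or below both 92.1 and Mel 270. By this rule 728 genes were higher in Mel 290 (5.27% of those tested) and 742 were lower (5.37%). The counts of the gene lists are read against these shares. The same rule gave 397 higher (2.87%) and 157 lower (1.14%) for 92.1 against the other two, and 268 higher (1.94%) and 325 lower (2.35%) for Mel 270. Between pairs of lines, 2503 genes were at least 2-fold apart for Mel 290 and 92.1, 2436 for Mel 290 and Mel 270, and 1353 for 92.1 and Mel 270. Of the called genes, 257 higher and 189 lower ones lay at least 4-fold outside both lines, and 67 and 34 at least 16-fold. The median difference between Mel 290 and the mean of both lines was -0.05 over all tested genes. The genes nearest the threshold were, inside it, ZNF83 and TMEM30A at 1.00 above the nearer line and AKAP1 and SNORD60 at 1.00 below it, with ZNF143 and C1orf52 just outside.

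With 1 array against 2, the limma fit called 0 genes higher (0%) and 0 lower (0%) at an adjusted p of 0.05 (Benjamini-Hochberg), and the smallest adjusted p was 0.067. At an unadjusted p of 0.05, 927 genes were higher (6.71%) and 970 lower (7.02%). That fit has 1 residual degree of freedom, from the difference between 92.1 and Mel 270, plus a prior worth 2.32. An exact permutation of 1 array against 2 cannot go below p = 0.333. The counts of genes are therefore descriptions of these 3 cultures. An alternative fit on all 6 arrays, with line and culture as terms, called 1588 genes higher (11.5%) and 2087 lower (15.1%). It included 620 of the 728 and 684 of the 742, but its error is the unequal response of the lines to T cells, not the spread of repeat cultures.

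**Figure D1:**
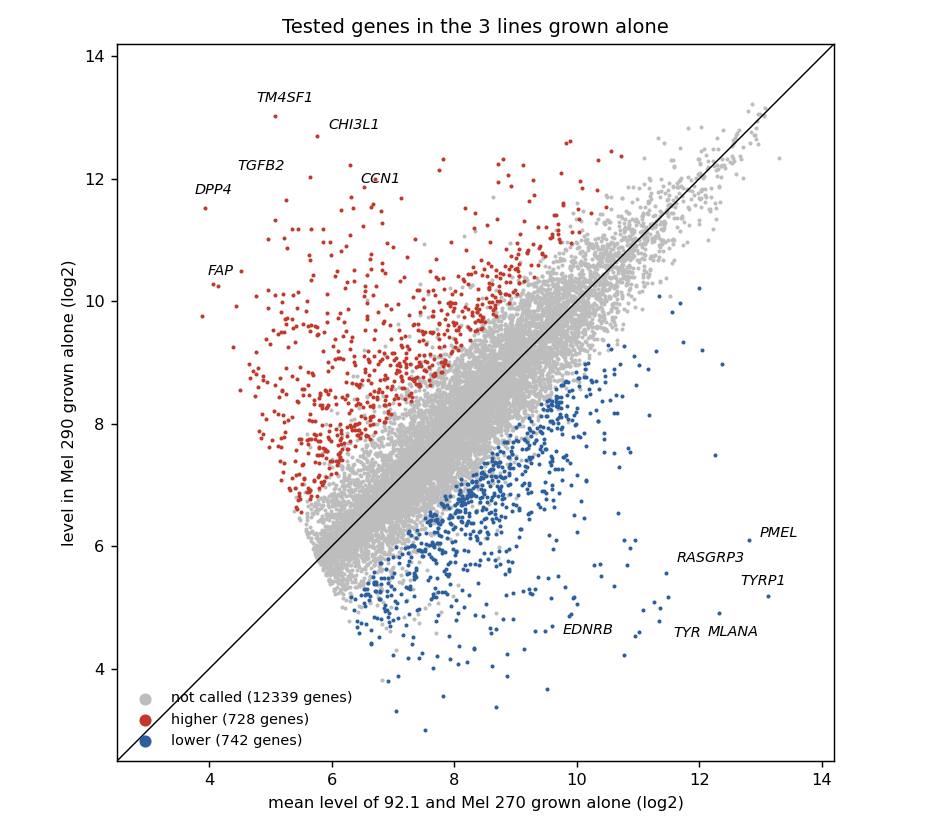
Level of each tested gene in Mel 290 (vertical axis, log2) against the mean of 92.1 and Mel 270 (horizontal axis, log2), all grown alone, 1 array per line; the line marks equal levels, red points are the 728 genes called higher and blue points the 742 called lower. TM4SF1 at 13.02 and DPP4 at 11.52 in Mel 290 lie far above the line, and TYRP1, MLANA, PMEL and TYR lie far below it.

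The genes of melanin synthesis were among the lowest in Mel 290 relative to the other lines. Of 24 genes on the list of melanin synthesis and the melanosome, 22 had a probe set and 20 were tested; 12 were lower in Mel 290 and none was higher, where 5.37% of all tested genes were called lower. The median difference over the 20 was -2.17, against -0.05 over all tested genes. The median level of the 22 measured genes was 9.85 in 92.1, 10.03 in Mel 270 and 6.58 in Mel 290. Of the 22, 0 lay below 5.78 in 92.1, 3 in Mel 270 and 6 in Mel 290. The labels give no measure of pigment itself. As these are bulk RNA samples, fewer cells with a transcript and less of it per cell cannot be told apart.

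TYRP1 (probe set 8154367, chromosome 9), an enzyme of the melanin pathway, had levels of 13.19 in 92.1, 13.05 in Mel 270 and 5.19 in Mel 290. It was the largest difference on the lower side, 243-fold below the mean of the other lines (limma adjusted p = 0.067, difference -7.92 with an SE of 0.27). Since the level in Mel 290 was low, the fold with low values raised to 5.78 is the safer one, and it was 162-fold. MLANA, the melanosomal antigen Melan-A, stood at 12.18, 12.46 and 4.92 in the same order (169-fold, 92.8-fold with low values raised). PMEL, which forms the fibrils on which melanin is laid down, stood at 13.08, 12.55 and 6.10 (105-fold). Tyrosinase, TYR, the rate-limiting enzyme of melanin synthesis, stood at 10.96, 11.72 and 4.79 (94.1-fold, 47.3-fold with low values raised, limma adjusted p = 0.068), and its other probe set differed by -6.41. For each of these 4 genes the 92.1 and Mel 270 arrays lay within 1 log2 unit of each other and far above that of Mel 290.

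The other called members have several roles in the melanosome and its supply. The pair OCA2 and SLC24A5, ion transporters of the melanosome membrane, read 5.97 and 5.52 in Mel 290, against 10.24 and 11.50 for OCA2 and 10.48 and 10.33 for SLC24A5 in 92.1 and Mel 270. RAB38, a small GTPase that delivers cargo to melanosomes, was at 12.41, 12.10 and 7.49. ATP7A, which supplies copper to tyrosinase, was at 9.67, 10.47 and 6.74, and CA14, a carbonic anhydrase, at 9.41, 9.52 and 6.61. Differences were smaller for MLPH (-2.71), MYO5A (-1.62) and HPS4 (-1.25), which move or build melanosomes. Not every pigment gene followed. The glycoprotein GPNMB stood at 12.60, 12.74 and 12.37 and the melanosome receptor GPR143 at 10.28, 10.13 and 9.76, so Mel 290 was within 2-fold of both lines there. SLC45A2 was high in 92.1 alone, at 10.02 against 6.56 in Mel 270 and 6.67 in Mel 290. Here and below, list members that were not called or not tested were picked for mention after their values were seen.

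MITF is known to bind the E-box CATGTG, which stands in the promoters of some pigment genes. It was searched on both strands in the 250 bases before each RefSeq start of a gene, in promoters of assembly GRCh38.p14. A gene with several starts counted as matched if the letters stood before any of them. HPS4, a called gene, had a match before only some of its starts. A match was found for 5 of the 10 called melanin genes that have an entry, for 7 of the 17 tested ones (41.2%), for 8.73% of the 10876 tested genes with an entry, and for 11.5% of all 27305 genes in the table. The window of MLANA held none, which says only that these letters are not there. The windows of GPNMB and GPR143, which were not called, held 2 matches each, so a match was not limited to the called genes. The 3 windows below are shown because they belong to enzymes and an ion transporter of the pathway with large differences; they were chosen after the matches were seen. Each runs from 5′ to 3′ on the gene's strand, and capitals mark CATGTG or its reverse complement CACATG.
TYR, chr11:89177625-89177874, plus strand: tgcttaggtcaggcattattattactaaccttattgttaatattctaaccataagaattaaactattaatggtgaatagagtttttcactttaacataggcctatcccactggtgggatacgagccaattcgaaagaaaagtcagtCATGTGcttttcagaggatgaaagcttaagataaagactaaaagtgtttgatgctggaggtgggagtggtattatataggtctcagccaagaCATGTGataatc
TYRP1, chr9:12693135-12693384, plus strand: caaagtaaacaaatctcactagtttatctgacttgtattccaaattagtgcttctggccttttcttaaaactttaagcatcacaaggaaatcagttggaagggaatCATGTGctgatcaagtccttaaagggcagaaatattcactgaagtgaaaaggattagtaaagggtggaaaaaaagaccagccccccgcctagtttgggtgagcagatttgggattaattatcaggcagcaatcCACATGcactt
SLC24A5, chr15:48120740-48120989, plus strand: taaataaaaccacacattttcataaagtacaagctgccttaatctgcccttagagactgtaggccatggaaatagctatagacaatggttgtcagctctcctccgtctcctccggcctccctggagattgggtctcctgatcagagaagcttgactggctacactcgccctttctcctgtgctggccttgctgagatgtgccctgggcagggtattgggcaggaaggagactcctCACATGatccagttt
In TYR the matches began 104 and 12 bases before the start, in TYRP1 144 and 11, and in SLC24A5 15. A match is a description of sequence, and no binding was measured.

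Regulators of the melanocyte program were called lower in Mel 290 as well. Of 27 tested genes on the list of melanocyte and neural crest regulators, 13 were lower and none was higher, and their median difference was -1.72, where 5.37% of all tested genes were called lower and the median over all of them was -0.05. MITF, the master regulator of pigment cells, stood at 11.01 in 92.1, 11.03 in Mel 270 and 8.96 in Mel 290, a difference of -2.06. SOX10, which activates MITF, was at 8.87, 9.21 and 6.84. PAX3, a partner of SOX10, was at 10.35, 9.52 and 5.15, below 5.78 in Mel 290. For MITF and SOX10 the level in Mel 290 was still above that low range.

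Receptors and further factors showed the same order. EDNRB, the endothelin receptor of melanoblasts, stood at 11.72 in 92.1, 10.31 in Mel 270 and 4.60 in Mel 290 (85.4-fold, 37.7-fold with low values raised, limma adjusted p = 0.116), with the lines above also apart from each other by more than 2-fold. ERBB3, a neuregulin receptor of the neural crest, was at 8.69, 8.84 and 6.49. SNAI2, a neural crest factor, was at 12.44, 12.32 and 8.98. The SOX factors SOX5 and SOX6 differed by -3.11 and -3.01, the sialyltransferase ST3GAL6 by -4.13, the MITF-linked cofactor CITED1 by -2.74, S100A1 by -2.55, INPP4B by -1.72 and ETV5 by -1.43. Some members did not separate Mel 290 from both lines. TFAP2A stood at 11.41 in 92.1 and 10.89 in Mel 270 and differed by -0.15 in Mel 290. The stem cell factor receptor KIT was high in Mel 270 alone, at 10.19 against 4.50 in 92.1 and 4.81 in Mel 290, and S100B had the same pattern at 9.07, 4.71 and 4.67. CATGTG was present before 5 of the 9 called regulators with a promoter entry and before 8 of the 17 tested ones (47.1%). It was present before 8.73% of all tested genes with an entry.

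**Figure D2:**
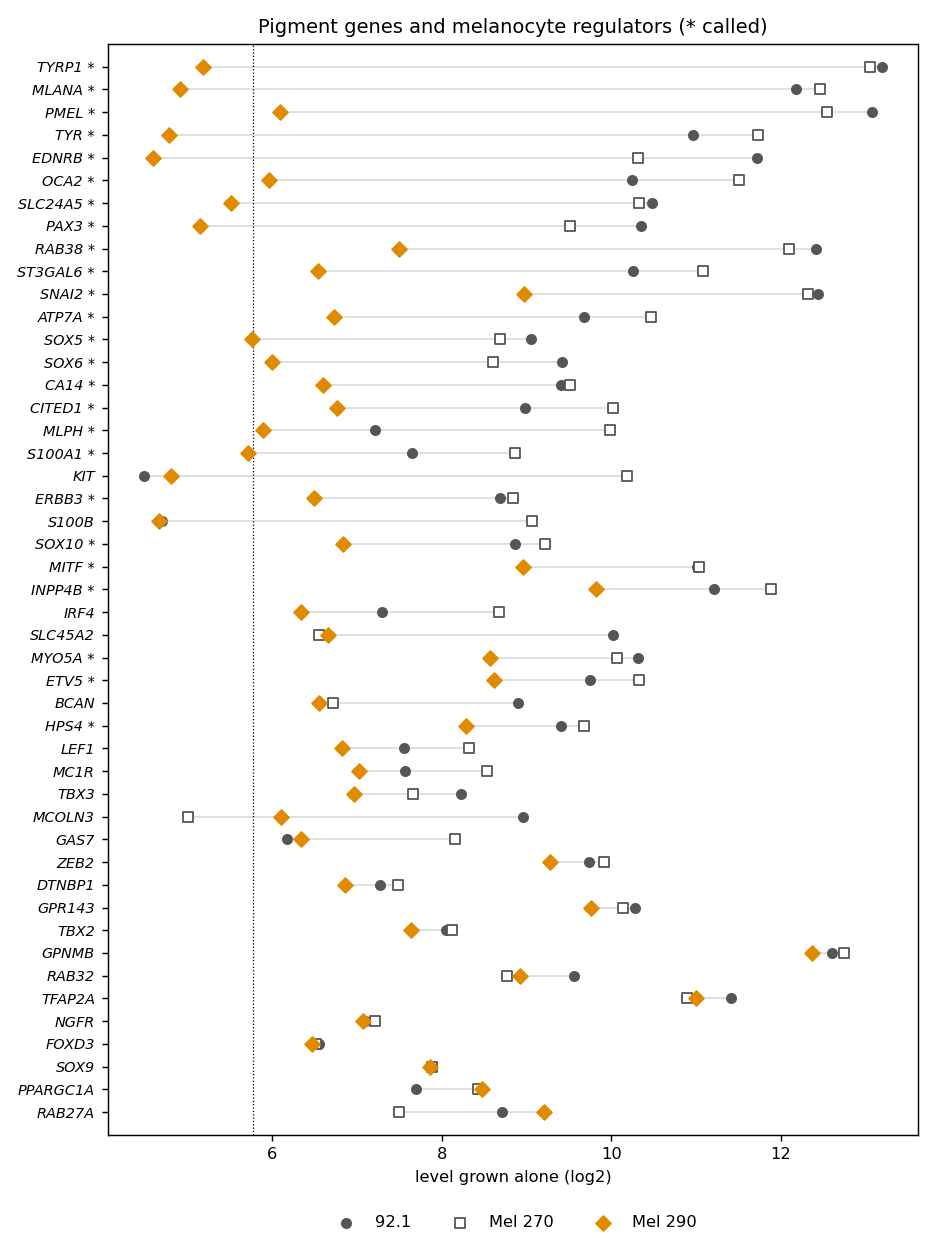
Levels (log2) of the tested genes on the lists of melanin synthesis and of melanocyte regulators in 92.1 (circles), Mel 270 (squares) and Mel 290 (diamonds) grown alone, 1 array each, ordered by the difference of Mel 290; an asterisk marks called genes and the dotted line the level 5.78. The upper rows show TYRP1, MLANA, PMEL and TYR with Mel 290 left of the dotted line or just right of it and both other lines above 10, while GPNMB, GPR143 and TFAP2A have the 3 lines close together.

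The 15 lower genes with the largest gaps also held genes outside the pigment lists. EMCN, the sialomucin endomucin, known from endothelium, stood at 10.58 in 92.1, 10.97 in Mel 270 and 4.23 in Mel 290 (93.5-fold, 32.0-fold with low values raised). ENTPD1, the ectonucleotidase CD39 that breaks down extracellular ATP, was at 11.31, 11.39 and 4.99 (82.2-fold, 47.6-fold with low values raised). The protease inhibitor A2M was at 12.15, 10.83 and 5.17, and the axon guidance protein SEMA6A at 11.99, 10.16 and 4.95, so for both 92.1 was more than 2-fold above Mel 270 too. In all 4 Mel 290 was below 5.78. The long noncoding RNA LINC00518 differed by -6.41, the neuritin gene NRN1 by -6.18, LRRC39 by -5.85, the cadherin CDH19 by -5.31 and the export pump ABCC2 by -5.13.

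Within the G protein pathway of uveal melanoma the alpha subunits were similar in the 3 lines and RASGRP3 was not. GNAQ stood at 10.34 in 92.1, 9.37 in Mel 270 and 9.97 in Mel 290, and GNA11 at 9.49, 9.13 and 8.97. RASGRP3, the exchange factor that couples diacylglycerol to RAS in GNAQ-mutant cells, stood at 11.33, 11.59 and 5.56, which made it 59.4-fold lower in Mel 290 (51.1-fold with low values raised, limma adjusted p = 0.067). Of 31 tested members of this list, 6 were lower and 3 higher, with a median difference of -0.34, where 5.27% of all tested genes were called higher and 5.37% lower. The lower ones were RASGRP3, the G protein regulators RGS2 (-2.24) and RGS20 (-2.16), the phosphodiesterases PDE4D (-2.20) and PDE4B (-1.12), and the kinase PRKCE (-1.23). Higher were PLCB4, a phospholipase of the pathway, at 6.96, 6.42 and 9.39, the exchange factor TRIO at 8.53, 8.23 and 9.70, and RGS4, which shortens the signal of Gq proteins, at 5.54, 5.79 and 10.35.

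Outputs of MAP kinase signalling went both ways. Of 20 tested members, 4 were lower and 3 higher, with a median difference of -0.43. For this and the class and driver lists below, the shares over all tested genes were 5.27% higher and 5.37% lower. The feedback inhibitors SPRY4 (9.03, 9.07 and 6.15 in 92.1, Mel 270 and Mel 290) and DUSP4 (10.05, 9.32 and 7.27) and the factors ETV1 (-2.26) and ETV5 were lower. The phosphatase DUSP5 (7.45, 7.22 and 9.63), the receptor EPHA4 (1.53) and the cytokine LIF (2.56) were higher. The markers that divide uveal melanomas into classes of low and high metastatic risk gave no single direction. Of 8 tested class 1 markers, MTUS1 was lower (8.80, 7.68 and 5.21) and no other was called. Of 3 tested class 2 markers, the matrix protein ECM1 was higher (6.57, 6.66 and 9.01) and the serotonin receptor HTR2B was lower (9.41, 10.35 and 4.87). Among 9 tested driver genes and PRAME, PLCB4 was higher and the phosphatase PTP4A3 lower (-1.61). PRAME itself was high in Mel 270 alone, at 10.28 against 5.21 in 92.1 and 5.08 in Mel 290.

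The 15 higher genes with the largest gaps were led by TM4SF1 and DPP4. TM4SF1 (probe set 8091411, chromosome 3), a membrane protein of the tetraspanin-like family, stood at 4.98 in 92.1, 5.15 in Mel 270 and 13.02 in Mel 290, 248-fold above their mean (limma adjusted p = 0.067, difference 7.95 with an SE of 0.27). With low values raised to 5.78 it was 151-fold. DPP4, a surface peptidase, stood at 4.02, 3.85 and 11.52 (192-fold, 53.3-fold with low values raised). FAP, a related peptidase best known from activated fibroblasts, stood at 4.02, 4.29 and 10.26 (68.7-fold, 22.2-fold with low values raised). The secreted chitinase-like protein CHI3L1 stood at 5.68, 5.84 and 12.70 (122-fold, 118-fold with low values raised). In 92.1 and Mel 270 these genes lay in the low range apart from CHI3L1 in Mel 270, just above it, whereas in Mel 290 each passed 10.

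The others of these 15 follow by their roles. TGFB2, a ligand of the TGF-beta family, was at 5.88, 5.41 and 12.03 (83.5-fold, 73.5-fold with low values raised), and CCN1, a matricellular protein induced by YAP, at 6.34, 6.26 and 12.22 (60.7-fold). The complement factor C3 was at 5.45, 5.46 and 11.18 (52.8-fold, 42.2-fold with low values raised). ENPP2, which makes lysophosphatidic acid, was at 4.53, 5.98 and 11.66; its limma adjusted p was 0.12, as 92.1 and Mel 270 were themselves more than 2-fold apart. IL7R, the interleukin 7 receptor of lymphocytes, was at 3.85, 3.93 and 9.75. Differences were 6.25 for the phospholipid flippase ATP8B1, 6.22 for ARHGAP29, 6.05 for GLIPR1, 5.96 for the thrombin receptor family member F2RL2, 5.84 for the BMP antagonist CHRDL1 and 5.81 for BEX1.

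Target genes of YAP and TEAD formed the list with the largest share of higher members. The coactivators YAP and TAZ bind TEAD factors and switch on genes of growth, adhesion and the cytoskeleton in spread cells, and crowding is known to restrain them. Of 24 tested members, 14 were higher and none was lower, with a median difference of 1.76, where 5.27% of all tested genes were called higher. The median level over the list was 7.12 in 92.1, 7.20 in Mel 270 and 9.57 in Mel 290. The factors themselves differed less. YAP1 stood at 9.79, 9.89 and 10.29 and TEAD1 at 9.76, 9.59 and 10.14, while WWTR1, the gene of TAZ, stood at 5.78, 6.98 and 8.97 and was called.

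Among the targets, ANKRD1 stood at 5.11 in 92.1, 4.99 in Mel 270 and 9.53 in Mel 290, and CCN2, the connective tissue growth factor, at 7.06, 7.97 and 9.91. AXL, the receptor kinase of the ligand GAS6, stood at 6.18, 6.11 and 10.83. F3, the tissue factor that starts coagulation, stood at 5.64, 5.59 and 9.60. For ANKRD1, AXL and F3 the 92.1 and Mel 270 arrays were nearly equal, at 6.18 or less, and Mel 290 was above 9. MYOF, a membrane repair protein, stood at 6.39, 7.22 and 11.47. Smaller differences were found for RBMS3 (3.65), CRIM1 (3.23), GADD45A (1.98), AJUBA (1.83), AMOTL2 (1.69) and IGFBP3 (1.69), beside TGFB2 and CCN1. The list also holds the coactivator genes YAP1, within 2-fold of both lines, and WWTR1, which is 1 of the 14. LATS2 was within 2-fold of both lines as well. In all, 10 of the 24 members were not called. A difference below 0 was found for 4 members, the lowest at -0.62.

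The core of the TEAD binding site, CATTCC, was searched in the same way on both strands. It was present before 6 of the 11 called members with a promoter entry (54.5%) and before 9 of the 17 tested ones (52.9%). The shares were 12.9% of tested genes and 14.3% of all genes in the table. The called members AMOTL2, AXL and AJUBA had a match before only some of their starts. As the shares of called and tested members were close, a match did not set the called ones apart. Among all genes called higher it was found for 17.8%, and among those called lower for 15.1%. The 3 windows below show the targets CCN2 and ANKRD1 and the gene with the largest difference, TM4SF1, which is not on the list; they too were chosen after the matches were seen. Capitals mark CATTCC or its reverse complement GGAATG.
CCN2, chr6:131951373-131951622, minus strand: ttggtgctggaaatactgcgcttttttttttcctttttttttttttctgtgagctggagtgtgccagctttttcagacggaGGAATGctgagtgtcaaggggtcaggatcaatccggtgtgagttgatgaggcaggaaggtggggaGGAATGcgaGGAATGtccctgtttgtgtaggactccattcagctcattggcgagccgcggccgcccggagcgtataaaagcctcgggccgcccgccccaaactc
ANKRD1, chr10:90921088-90921337, minus strand: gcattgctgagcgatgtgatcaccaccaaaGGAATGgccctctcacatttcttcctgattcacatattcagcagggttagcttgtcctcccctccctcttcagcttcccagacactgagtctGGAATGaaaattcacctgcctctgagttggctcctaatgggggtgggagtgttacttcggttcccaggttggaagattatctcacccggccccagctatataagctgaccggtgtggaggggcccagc
TM4SF1, chr3:149377650-149377899, minus strand: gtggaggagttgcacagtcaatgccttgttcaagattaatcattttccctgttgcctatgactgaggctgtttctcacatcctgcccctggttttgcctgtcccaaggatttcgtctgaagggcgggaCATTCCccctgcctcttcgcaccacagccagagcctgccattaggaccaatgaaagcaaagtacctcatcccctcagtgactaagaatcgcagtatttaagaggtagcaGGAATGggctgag
In CCN2 the matches began 169, 104 and 95 bases before the start, in ANKRD1 220 and 128, and in TM4SF1 122 and 13. Here too a match describes sequence only, and no binding was measured.

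**Figure D3:**
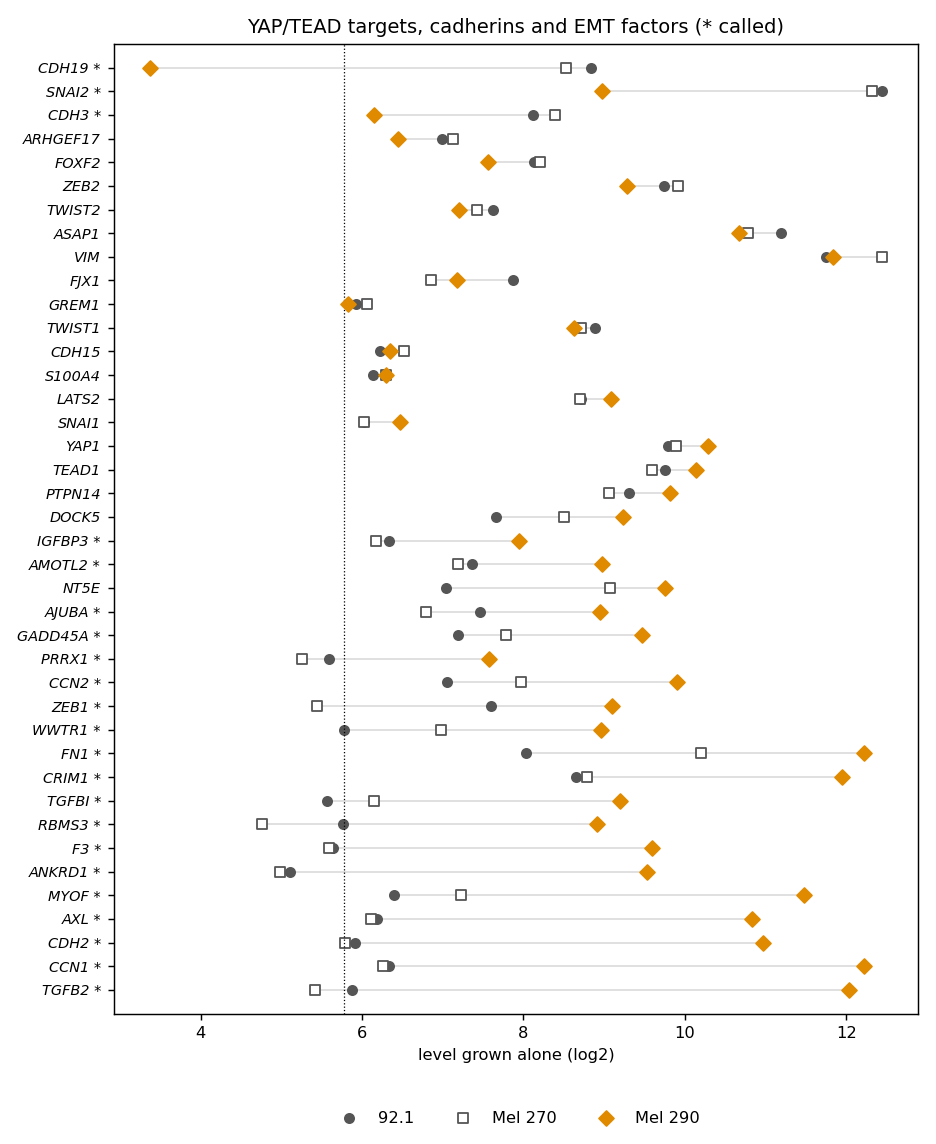
Levels (log2) of the tested genes on the lists of YAP and TEAD targets and of cadherins and EMT factors in 92.1 (circles), Mel 270 (squares) and Mel 290 (diamonds) grown alone, 1 array each; an asterisk marks called genes and the dotted line the level 5.78. TGFB2, CCN1, CDH2 and AXL at the bottom have Mel 290 above 10 and both other lines below 7, while CDH19 and SNAI2 at the top have Mel 290 lowest.

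The cadherins differed in kind. CDH2, N-cadherin, stood at 5.92 in 92.1, 5.79 in Mel 270 and 10.97 in Mel 290, whereas CDH19, a cadherin of the neural crest lineage, stood at 8.84, 8.53 and 3.37 and CDH3, P-cadherin, at 8.12, 8.39 and 6.14. The E-cadherin gene CDH1 was low in all 3 lines, at 5.09, 5.05 and 4.84. Of 16 tested cadherins and factors of epithelial-mesenchymal transition (EMT), 5 were higher and 3 lower, with a median difference of -0.10. Over all tested genes 5.27% were called higher and 5.37% lower. The transcription factors ZEB1 (7.60, 5.45 and 9.10) and PRRX1 (5.59, 5.25 and 7.58) were higher, as were fibronectin, FN1 (8.04, 10.20 and 12.22), and TGFBI (5.57, 6.14 and 9.20). SNAI2 was lower, ZEB2 was at 9.74, 9.92 and 9.28, and vimentin, VIM, was at 11.75, 12.44 and 11.84. Thus ZEB1 and SNAI2 differed in opposite directions, and the mesenchymal filament gene VIM was high in all 3 lines.

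Among matrix genes the calls were mainly higher, where 5.27% of all tested genes were called higher and 5.37% lower. Of 25 tested collagens and laminins, 6 were higher and 1 lower, and of 34 tested matrix glycoproteins and remodelling enzymes, 11 were higher and 2 lower, with medians of 0.19 and 0.33. COL12A1 stood at 4.78, 4.74 and 10.09 and COL8A1 at 4.75, 4.78 and 9.18 in 92.1, Mel 270 and Mel 290. The main fibrillar collagens did not separate the lines: COL1A1 was at 7.49, 7.38 and 7.49 and COL3A1 at 6.25, 6.33 and 6.38. Laminin chains LAMA4 (2.16) and LAMB3 (2.42) and the collagens COL4A2 (1.85) and COL5A2 (1.73) were higher, and LAMA1 was lower (-2.53).

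EFEMP1, a fibulin, stood at 5.34 in 92.1, 5.20 in Mel 270 and 10.87 in Mel 290, and thrombospondin 1, THBS1, at 5.03, 4.91 and 10.18. LOX, which cross-links collagen, stood at 7.07, 4.64 and 11.17. The related LOXL2 and LOXL1 differed by 3.60 and 2.07, fibrillin 1, FBN1, by 4.92, tenascin C, TNC, by 3.96, the urokinase receptor PLAUR by 3.81, SPARC by 2.76, FBLN5 by 1.71 and ADAMTS1 by 1.50. Lower were FBLN1 (-2.35) and the protease MMP17 (-2.00). In 92.1 and Mel 270 the genes EFEMP1, THBS1, FBN1 and TNC were all in the low range, and in Mel 290 none was.

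Adhesion receptors were called in both directions, with 9 of 25 tested members higher, 6 lower and a median of 0.77. Over all tested genes 5.27% were called higher and 5.37% lower. The laminin-binding integrin chain ITGA3 stood at 6.93 in 92.1 and 6.49 in Mel 270 and was 5.29 above their mean in Mel 290. The fibronectin-binding chain ITGA5 stood at 9.32, 8.27 and 12.32 in 92.1, Mel 270 and Mel 290. The collagen-binding chain ITGA2 went the other way, at 8.11, 9.08 and 4.66, and ITGA9 likewise at 9.18, 7.49 and 5.72. Higher too were the tetraspanin CD9 (5.20, 5.20 and 10.11), ALCAM (8.04, 4.43 and 10.91), ITGA7 (3.09), ITGA6 (2.36), ITGB3 (1.51), ITGB5 (1.47) and ITGB4 (1.16). The scavenger receptor CD36 (11.14, 10.61 and 7.54), the melanoma adhesion molecule MCAM (8.77, 10.82 and 7.45), PCDH7 (-2.78) and CEACAM1 (-2.58) were lower.

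Growth factor receptors and ligands included 10 higher and 3 lower of 31 tested, with a median of 0.39, where 5.27% of all tested genes were called higher and 5.37% lower. EGFR stood at 5.60 in 92.1, 5.22 in Mel 270 and 9.33 in Mel 290. PDGFRB, the platelet-derived growth factor receptor beta, stood at 5.99, 5.86 and 9.66. Ligands were among the higher genes: FGF2 was at 7.01, 6.27 and 11.53, FGF5 at 5.19, 5.19 and 9.99, PDGFC at 6.79, 5.04 and 9.80, and GAS6, the ligand of AXL, at 7.07, 6.03 and 9.54. The binding proteins IGFBP7 (6.35, 6.35 and 11.53) and IGFBP3 were higher and IGFBP2 was lower (9.94, 9.74 and 7.41). The ERBB family divided, with EGFR and the ligand NRG1 (1.91) higher and ERBB3 and ERBB4 (6.73, 8.12 and 4.98) lower.

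In WNT and TGF-beta signalling, 9 of 44 tested members were higher and 4 lower, with a median of 0.18. Over all tested genes 5.27% were called higher and 5.37% lower. The WNT antagonist DKK1 stood at 5.43 in 92.1, 4.71 in Mel 270 and 10.11 in Mel 290, DKK3 at 6.48, 6.66 and 10.42 (its other probe set, with a low mean of 4.93, differed by -0.17) and the receptor FZD8 at 7.93, 7.70 and 12.32. Other frizzled receptors were lower, FZD3 at 8.84, 8.49 and 5.78 and FZD7 with a difference of -1.29. On the TGF-beta side TGFB2, TGFB1 (7.50, 7.81 and 9.75) and the signal transducer SMAD3 (6.75, 6.41 and 9.70) were higher, while the divergent ligand GDF15 was lower (8.04, 11.88 and 6.51). The BMP antagonist NOG (1.34), WNT5B (1.33) and LGR4 (1.34) were higher and ID4 lower (-1.29).

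**Figure D4:**
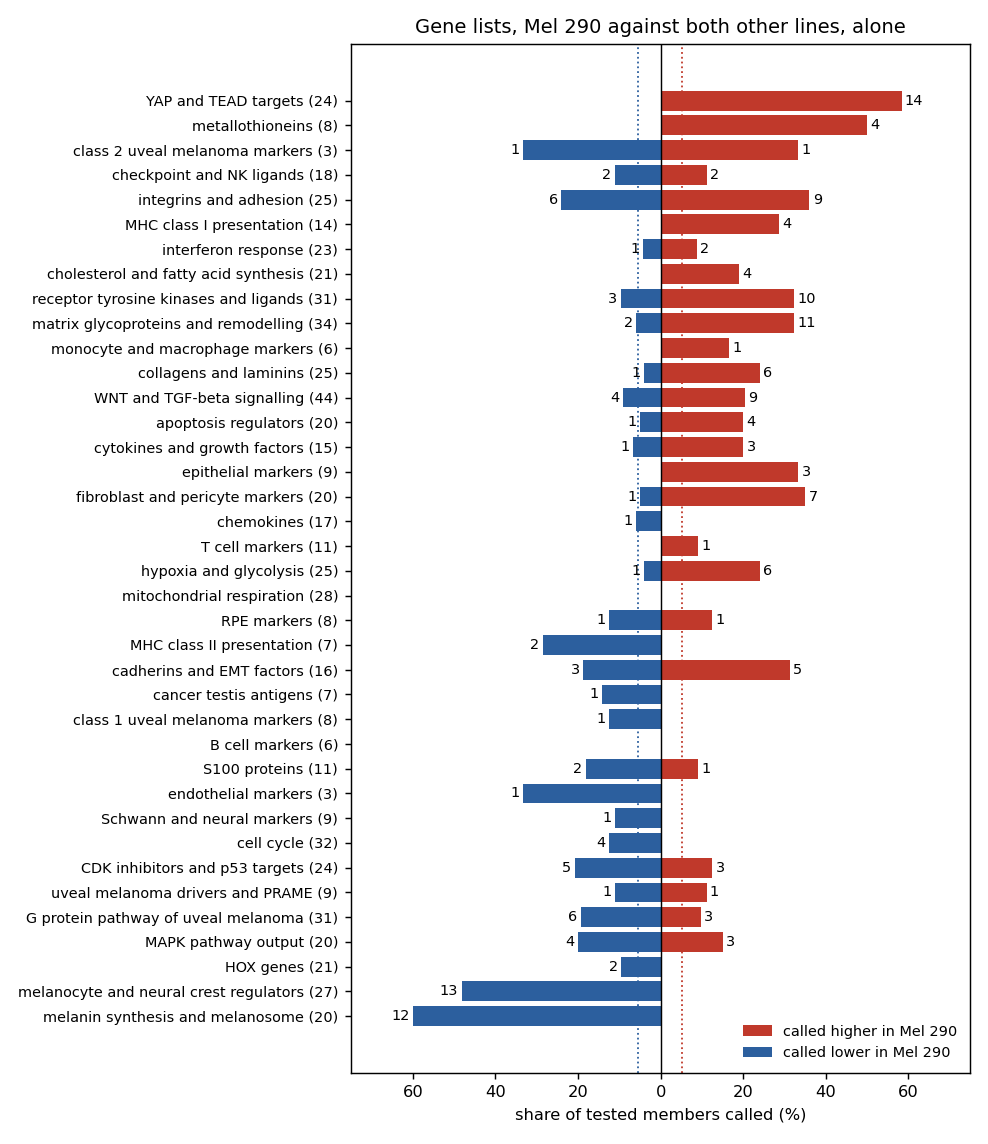
Share of the tested members of each of 38 gene lists called higher (red, to the right) or lower (blue, to the left) in Mel 290 against both other lines grown alone, in percent; numbers at the bars are counts of called genes, brackets give the tested members, and dotted lines mark the shares over all tested genes, 5.27% higher and 5.37% lower. Lists are ordered by their median difference, from the YAP and TEAD targets with 14 of 24 higher at the top to melanin synthesis with 12 of 20 lower at the bottom.

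Immune genes had calls in both directions, read against the 10.6% of all tested genes called either way. Of 17 tested chemokines only CCL28, which attracts lymphocytes to mucosa, was called, at 8.41 in 92.1, 8.78 in Mel 270 and 4.58 in Mel 290. CCL2, the main attractant of monocytes, stood at 5.46, 5.86 and 6.61 and CXCL8 at 5.98, 6.40 and 6.50. Among 15 tested cytokines, CSF1, the growth factor of macrophages, was higher (7.93, 7.99 and 9.97), as were LIF and SPP1 (4.72, 5.70 and 8.15), and GDF15 was lower. IL1B and IL18, cytokines of the inflammasome pathway, did not pass the filter on low values and were not tested. Their levels were 4.42, 4.34 and 7.42 for IL1B and 2.34, 2.46 and 7.29 for IL18.

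The pathway that loads peptides on MHC class I was higher in Mel 290 in 4 of 14 tested members and lower in none. For this and the next lists the shares over all tested genes were 5.27% higher and 5.37% lower. The peptide transporter TAP1 stood at 7.77 in 92.1, 8.28 in Mel 270 and 9.97 in Mel 290, the light chain B2M at 10.07, 10.59 and 11.82, and the immunoproteasome subunits PSMB9 at 6.11, 6.16 and 7.99 and PSMB8 at 6.18, 5.35 and 7.49. HLA class I heavy chain genes with a probe set of several symbols were not analysed here. MHC class II genes had 2 of 7 lower, HLA-DMB (-1.33) and the lysosomal reductase IFI30 (-1.71). Of 23 tested interferon response genes IFITM3 (8.89, 6.09 and 10.04) and RIGI (6.29, 5.39 and 7.49) were higher, with close paralogs that can share the probes of IFITM3, and SAMD9 was lower (6.75, 7.09 and 3.80). Among 18 tested checkpoint and NK cell ligands, PDCD1LG2, which encodes PD-L2 (4.75, 5.58 and 7.77), and MICB (8.17, 7.49 and 9.46) were higher, and ENTPD1 and LGALS3 (8.64, 10.45 and 6.19) were lower.

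The calls among cell cycle genes were all lower, but the list as a whole had no single direction. Of 32 tested, 4 were lower and none higher, where 5.27% of all tested genes were called higher and 5.37% lower: CDK2 (11.79, 10.53 and 8.89 in 92.1, Mel 270 and Mel 290), MCM3 (-1.81), MCM5 (-1.27) and CCNE1 (-1.23). MKI67, a marker of cycling cells, stood at 10.02, 9.29 and 9.40. Over the 32 genes the median difference was -0.20, with 13 above 0 and 19 below. The median was -0.46 against 92.1 and 0.12 against Mel 270. With T cells the median difference was 0.56, and 1 of the 4 lower genes was called again. Among inhibitors of the cycle and p53 targets, 5 of 24 were lower and 3 higher. The CDK inhibitors divided, with CDKN2A at 8.54, 8.50 and 6.61 and CDKN2B at 7.05, 7.20 and 8.76. The cyclin CCND2 stood at 5.29, 5.20 and 9.63. The p53 targets ZMAT3 (-2.10), TP53INP1 (-1.37) and CDKN1A (-1.34) and the cyclin CCND3 (-1.35) were lower and GADD45A was higher. Of 20 apoptosis regulators, the survival gene BCL2L1 (8.07, 8.15 and 10.11), FAS (1.41), TNFRSF1A (1.31) and CASP4 (2.31) were higher and BCL2 (9.31, 8.53 and 7.28) lower.

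Among metabolic genes, calls were found in glucose uptake and lipid synthesis and none in respiration. For these and the other lists below, the shares over all tested genes were 5.27% higher and 5.37% lower. The glucose transporter SLC2A1 stood at 8.96 in 92.1, 8.46 in Mel 270 and 12.24 in Mel 290 and SLC2A3 at 7.86, 6.32 and 9.96. They were 2 of 6 higher genes among 25 of hypoxia and glycolysis, with ENO2 (3.19), ADM (1.98), CA12 (1.36) and HK2 (9.08, 8.90 and 10.19), while ALDOC was lower (-1.69) and the median was -0.01. None of 28 mitochondrial respiration genes was called, and their median was -0.06. Of 21 genes of cholesterol and fatty acid synthesis, 4 were higher: FADS2 (8.93, 7.74 and 11.44), INSIG1 (10.50, 8.09 and 11.99), MVD (1.55) and STARD4 (1.07). Of 8 metallothioneins, which bind zinc and copper, 4 were higher. MT1E stood at 6.19, 6.45 and 9.35 and MT2A at 10.19, 9.60 and 12.61, and MT1F and MT1G both differed by 2.03. Metallothionein sequences are close and single members are uncertain. Among 11 S100 genes S100A10 (8.04, 11.78 and 4.90) and S100A1 were lower and S100A16 (2.22) was higher. Of 21 HOX genes HOXC9 (-1.42) and HOXD4 (-1.02) were lower, and of 7 cancer testis antigens TEX15 was lower (9.81, 8.82 and 4.61).

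Markers of other cell types were examined because a line can carry or resemble other cells. Over all tested genes 5.27% were called higher and 5.37% lower. Of 20 tested fibroblast and pericyte markers, 7 were higher and 1 lower, with a median of 0.07. The higher ones were FAP, PDGFRB, CSPG4 (5.20, 5.25 and 8.03), PDGFRL (2.22), PRRX1, ACTA2 (1.64) and TAGLN (1.30), and TBX18 was lower (-2.31). The fibroblast genes DCN and PDGFRA were low in all 3 lines, DCN at 3.04, 3.26 and 3.10, and the summed log2 level of the 24 measured markers was 146 in 92.1, 149 in Mel 270 and 165 in Mel 290. The part of such cells in the matrix differences was not tested. Of 9 epithelial markers the keratins KRT8 (6.39, 6.71 and 10.17), KRT80 (2.85) and KRT18 (1.50, and 2.35 by its other probe set) were higher, while EPCAM was low in every line. Of 8 retinal pigment epithelium markers the eye development factor OTX2 was higher (5.90, 6.20 and 9.05) and the channel gene BEST1 lower (8.98, 10.41 and 5.52), and RPE65 was low in every line. Among 3 tested endothelial markers only EMCN was called, and VWF, PECAM1 and CDH5 were low in all lines.

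Blood cell markers were called in a share near the 10.6% of all tested genes called either way. IL7R was the only one called of 11 tested T cell markers, and CD3E, CD3D, CD2 and the leukocyte gene PTPRC were low in all 3 lines, PTPRC at 3.84, 4.04 and 3.78. CD68, a lysosomal gene also used for macrophages, was the only one of 6 monocyte markers (10.07, 9.32 and 11.09), and none of 6 B cell markers was called. Of 9 Schwann and neural markers only SOX10, a melanocyte gene as well, was lower. The lists together held 643 of the 13809 tested genes and 188 of the 1470 called ones.

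The line difference was looked up again on the co-culture arrays, where each line had received factors from activated T cells. With T cells, Mel 290 was higher than both lines for 544 genes (3.94% of those tested) and lower for 878 (6.36%). Of the 728 genes higher alone, 411 were called higher again (56.5%) and 701 kept the sign (96.3%, against 54.0% positive differences over all tested genes). Of the 742 lower alone, 494 were called again (66.6%) and 733 kept the sign (98.8%, against 46.0%). None was called in the opposite direction. The median difference was 1.90 alone and 1.49 with T cells for the higher genes, and -1.75 and -1.63 for the lower ones.

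**Figure D5:**
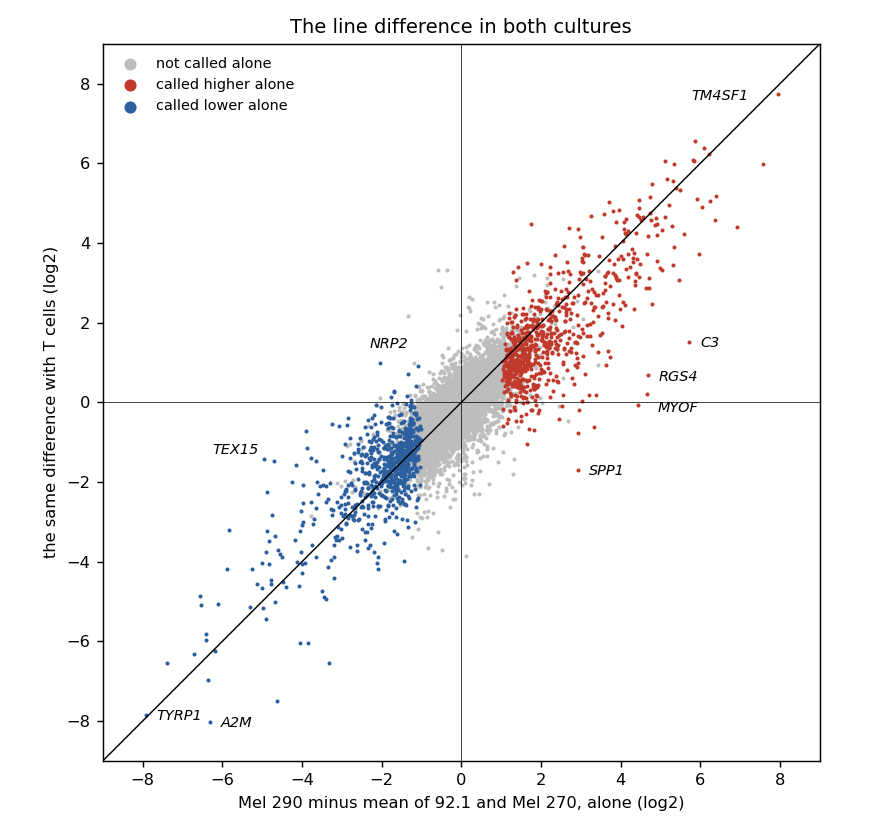
Difference of Mel 290 from the mean of 92.1 and Mel 270 grown alone (horizontal axis, log2) against the same difference with T cells (vertical axis, log2) for all tested genes, with genes called higher alone in red and lower alone in blue; the diagonal marks equal differences, and each value rests on 1 array per line. TYRP1 and TM4SF1 lie on or near the diagonal, while C3, RGS4, MYOF and SPP1 lie well below it.

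Of the leading genes, TYRP1 differed by -7.85 with T cells and -7.92 alone, PMEL by -6.32 and -6.71, and TM4SF1 by 7.74 and 7.95. A2M differed by more with T cells, -8.01 against -6.32. Of the 12 lower melanin genes 9 were called again, and MLPH (-1.28), MYO5A (-1.09) and HPS4 (-0.08) were not. Of the 13 lower regulators 10 were called again; MITF, at a difference of -1.41, was not, since the nearer line came within 2-fold. Of the 14 higher members of the YAP and TEAD list 8 were called again, with CCN1 at 5.12, AXL at 4.18 and ANKRD1 at 3.47. CCN2 (0.54), AJUBA (0.34) and MYOF (0.21) were among those not called again. The median difference of this list was 1.76 alone and 0.86 with T cells. That of the melanin list was -2.17 alone and -1.39 with T cells.

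For some genes the other lines differed more between the cultures than Mel 290 did. C3 stood with T cells at 9.02 in 92.1, 13.07 in Mel 270 and 12.57 in Mel 290, so Mel 270 was above Mel 290 and the call was lost. MYOF stood at 9.28, 11.60 and 10.65. The 4 MHC class I genes higher alone had differences from -0.20 (TAP1) to 0.92 (PSMB8) with T cells, and none was called. Others were lost through Mel 290 itself. RGS4 was at 10.35 alone and 6.29 with T cells in Mel 290, while 92.1 and Mel 270 stayed at 5.69 and 5.53. SPP1 in Mel 290 was at 8.15 alone and 5.70 with T cells, and at 9.81 in Mel 270 with T cells. On the lower side TEX15 stood at 8.16, 4.87 and 5.03 with T cells, with Mel 270 now as low as Mel 290.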

How the data were processed

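Biotin-labelled total RNA of 3 uveal melanoma lines was measured on Affymetrix gene arrays, 1 array per line grown alone. The authors deposited log2 values made with Affymetrix Expression Console 1.2.0.20, per the submitters' processing notes; how probes were summarized and normalized is not given here. The arrays had nearly equal distributions (largest gap between sorted values 0.15 over the inner 98%) and no further normalization was applied. Having 1 array per line limits the precision.

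Of 33297 probe sets, the array annotation listed 21214, with 1 symbol for 19460 and several for 1754; 12083 were unnamed here. Symbols were matched to RefSeq (GRCh38.p14, names and promoter windows), giving 18395 genes. For genes with several probe sets (660 of those tested) the brightest by mean over the arrays grown alone was taken, and genes with a mean of at least 5.78, the 25th percentile of listed probe sets, were tested (13809).

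A call needs at least 2-fold from both other lines; differences are the level of Mel 290 minus the mean of 92.1 and Mel 270. limma 3.58.1 in R 4.3.3 (lmFit, eBayes) gave Benjamini-Hochberg adjusted p-values over all tested genes. The fitting code was also run on simulated arrays. Those gave every array the same spread, so they cannot show whether the lone Mel 290 array varies like the other lines. Named are the 15 genes in each direction with the largest gap to the nearer line, without Y-linked genes and XIST, and the called members of the 38 lists. Where a list had none called, no member was named. Other names were chosen after their values were seen. The members, lists and rules were chosen with earlier results of these data known. Alternatives were other filters, quantile and cyclic loess normalization, raised low values, averaged probe sets, other call sizes, a left-out line, and other limma designs.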

Additional observations from a re-analysis of the deposited data

How the results depend on the processing

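No result that was recomputed changed direction. Quantile normalization, cyclic loess, raising low values, averaging probe sets, no filter and a filter on the highest array gave 701 to 854 higher and 665 to 793 lower genes. A filter at the median level left 467 higher and 569 lower. At 4-fold from both lines there were 257 and 189, and at 1.5-fold 1371 and 1539. Counting 2-fold from the mean of the 2 lines gave 1068 higher and 1151 lower. Leaving out 1 of the other lines gave 1085 to 1219 higher and 1217 to 1418 lower genes: 1219 and 1217 without 92.1, and 1085 and 1418 without Mel 270, since only 1 line then has to be passed. The limma fit of 3 arrays called 0 genes under the other filters, normalizations and probe set choices run, but a filter at the median gave 31 higher and 22 lower; a trended prior gave 85 and 25, and the 6-array fit 1588 and 2087. At 4-fold, 156 higher and 107 lower genes were called alone and again with T cells. Of 205 named or listed called genes, 201 kept the call under quantile normalization, 201 with low values raised and 204 under cyclic loess, and 156 passed the median filter. No paired analysis was possible because the labels carry no replicate numbers and the groups compared are 1 array against 2 of different lines. Low signals limit folds: 120 higher genes had the other lines, and 210 lower genes had Mel 290, below 5.78.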

Other observations

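The share of called genes differed between chromosomes; no test was made of it. On chromosome 13, 12.9% of 224 tested genes were lower in Mel 290 and 2.68% higher, with a median difference of -0.23, and on chromosome 8 9.13% of 493 were lower and 3.85% higher, with a median of -0.32. On chromosome 6, 10.6% of 679 genes were lower and 6.33% higher. Chromosome 18, with 189 tested genes, had high shares in both directions, 8.99% higher and 9.52% lower. Chromosome 15 had 8.58% higher and 4.29% lower genes, and chromosome 16 had 1.95% lower. On chromosome 8 the median of Mel 290 was below both lines, -0.35 against 92.1 and -0.22 against Mel 270, and it was -0.24 with T cells. On chromosome 13 the values were -0.31, -0.14 and -0.20. DNA copy number was not measured on these arrays.

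Several list members lay at least 2-fold outside both lines but had a mean below 5.78 and were not tested. The interstitial collagenase MMP1 stood at 4.37 in 92.1, 4.56 in Mel 270 and 8.07 in Mel 290, with a difference of 7.12 with T cells. CD274, the gene of PD-L1, stood at 4.76, 5.07 and 7.09. The guanylate-binding protein GBP3 stood at 4.61, 4.54 and 7.96, and the transcription factor TCF4 at 4.55, 4.79 and 7.10. The inflammatory caspase CASP1 stood at 3.83, 4.28 and 6.48. In each of them Mel 290 was the only line above the low range. They were picked after looking at their values.

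Further genes with a lost call in co-culture, also chosen after their values were seen, were C1S, a complement protease, at 5.66, 5.21 and 9.88 alone and 12.19, 11.96 and 12.02 with T cells, and the kinase PLK2 at 7.92, 8.44 and 11.52 alone and 10.88, 11.73 and 10.69 with T cells. For C1S the 3 lines were then within 2-fold of each other, and for PLK2 Mel 290 was the lowest. The semaphorin receptor NRP2 went from below both lines alone, at 9.01, 9.75 and 7.34, to above both with T cells, at 9.10, 10.03 and 10.57.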
